A study of Mus musculus with 6 samples.

Results

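Ligands, receptors and antagonists of the interleukin-1 (IL-1) family were followed at the transcript level, 10 of the 55335 mouse Ensembl genes in the deposited expression table. They were chosen by gene symbol as ligands (*Il1a*, *Il1b*, *Il18* and *Il1f9*), antagonists or decoys (*Il1rn*, *Il18bp* and *Il1r2*) and receptor chains (*Il1r1*, *Il1rap* and *Il1rl1*), and each symbol matched 1 gene. The RNA came from macrophages that had been grown from bone marrow (BMDMs) of WT genotype in all 6 libraries, cultured for 7 days with 25 ng/ml M-CSF and then kept for 24 h in direct contact with neutrophils. The neutrophils were isolated with magnetic beads from contused spinal cord at 3 days post injury (dpi). They came from *Cd177* WT mice for 3 libraries (WT N) and from *Cd177* KO (Cd177-/-) mice for the other 3 (KO N), so that only the neutrophils differed in genotype by label. The study used male mice, its WT animals being adult C57BL/6, and whether neutrophils of several animals were pooled is not stated. CD177 is a neutrophil surface glycoprotein, and the comparison asked how its absence on neutrophils altered the macrophages beside them. Ly6G-negative cells were sorted before RNA extraction, and no library of BMDMs kept without neutrophils was analysed here.

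IL-1α and IL-1β signal through a receptor built from IL1R1 and the accessory chain IL1RAP, which recruits MYD88 and IRAK kinases and activates NF-κB. The receptor antagonist (encoded by *Il1rn*) occupies IL1R1 without signalling, the type 2 receptor (*Il1r2*) binds IL-1 without a signalling domain, and IL-18-binding protein (*Il18bp*) captures IL-18. IL-1β and IL-18 are made as precursors that caspase-1 cleaves in inflammasomes, so a transcript level does not give the amount of active cytokine. Macrophages and neutrophils are both known sources of IL-1 and of its antagonist in the injured spinal cord.

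The libraries held the main macrophage transcripts, with *Adgre1* between 218 and 309 FPKM, *Cd68* between 456 and 587 and *Csf1r* between 232 and 293. FPKM counts sequenced fragments relative to transcript length and library total. The steps between low values implied 17600000 to 20200000 fragments per library. *Cd177* itself ran against the labels, measuring 0.544, 0.309 and 0.521 FPKM where the label was WT but 1.79, 1.84 and 2.28 FPKM where it was KO (log2 fold change 1.37, limma adjusted p = 0.0008). The 2 sets of libraries are therefore called WT-labelled and KO-labelled, and every direction is that of KO-labelled against WT-labelled. If the labels had been exchanged, each direction given here would turn, which the expression table alone cannot settle. Of 18 neutrophil markers, 12 were tested, 10 were higher and 1 (*Mmp8*) was lower, beside 27.1% and 10.5% of all genes tested. The 18 markers summed to 202.6 to 262.8 FPKM in WT-labelled and 558.0 to 573.4 FPKM in KO-labelled libraries. The largest rises among those tested were in *Ltf*, *Ngp*, *Lcn2* and *Camp*, with log2 fold changes of 3.09, 3.02, 2.31 and 1.78. The study names *Camp*, *Ngp* and *Ltf* beside *Cd177* as marking the same neutrophil subset. *Ly6g*, the antigen used for sorting, was listed at 0 in the WT-labelled and at 0.660, 0.547 and 0.403 FPKM in the KO-labelled libraries, and *S100a9* at 82.4, 75.9 and 113 against 244, 221 and 238 FPKM. In bulk RNA, fewer cells of a type and less RNA per cell cannot be told apart. No source states that the replicates were separate cultures, so p-values measure only the spread between these libraries, which may be technical.

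Of the 10 genes, 6 fell, 1 rose, 2 were not called and *Il1r2* was too low to be tested. The transcripts of IL-1α, IL-1β and the IL-1 receptor antagonist all fell, IL-1β the furthest, while *Il18* rose and the transcript of its binding protein fell. A gene was tested with limma on log2(FPKM + 0.5) if its mean over the 6 libraries was at least 0.5 FPKM, and called at an adjusted p under 0.05 (Benjamini-Hochberg over all 13367 genes tested). Over all genes tested, 10.5% were called lower and 27.1% higher. The median log2 fold change was -0.87 over the 9 genes tested and 0.19 over all genes. The groups did not overlap, with all KO-labelled libraries lower, in 6 of the 9, where 14.4% of all genes tested showed this, and with all KO-labelled libraries higher in 1, where 37.5% did.

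**Figure D1:**
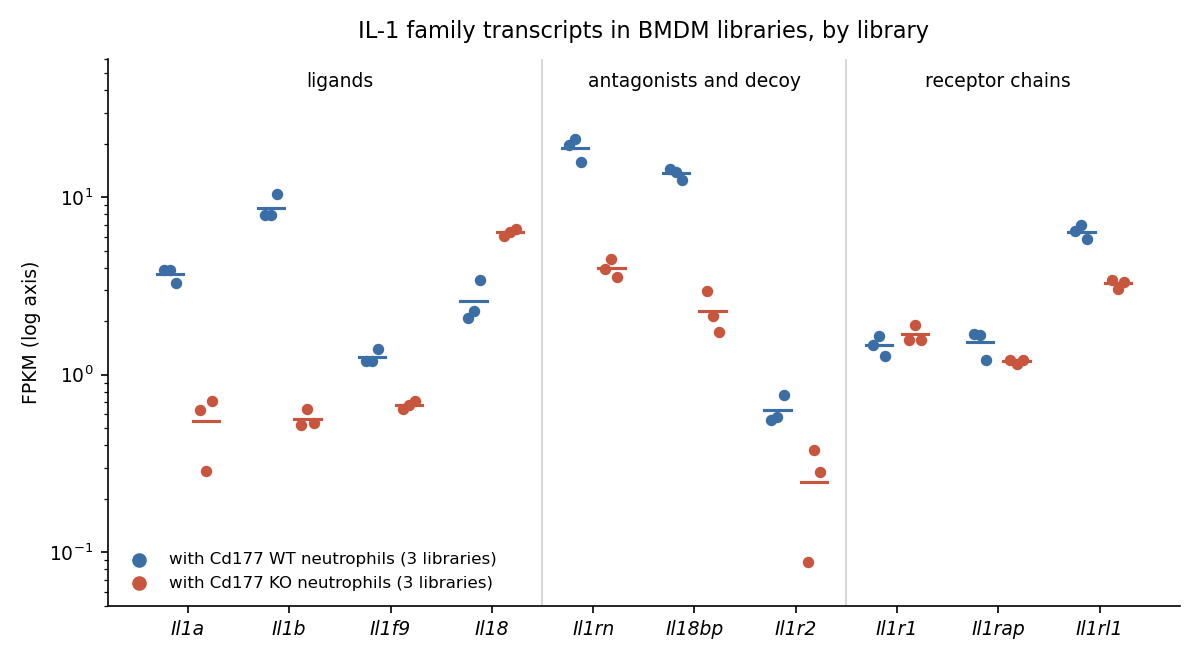
FPKM (log axis) of the 10 IL-1 family genes in each library, with points for the 3 libraries of each label, WT-labelled in blue and KO-labelled in red, and lines for the group means. *Il1b* drops from 7.91 to 10.4 FPKM down to 0.519 to 0.644 FPKM, *Il18* is the 1 gene whose red points all lie above the blue, and *Il1r1* and *Il1rap* overlap.

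The promoters of the 2 IL-1 agonists and of the IL-18 pair are shown because both agonists fell and the IL-18 pair moved in opposite directions. The windows run from 250 bases before to 50 bases after the RefSeq start (GRCm38.p6), each written 5′ to 3′ on the strand of its gene. Capitals mark matches, on either strand, to any of 7 motifs searched: κB and ISRE (each given by name), GAS (TTCNNNGAA), PU.1 (GAGGAA), C/EBP (TTNNGNAAT), AP-1 (TGANTCA) and the TATA box (TATAAA). The windows lie at chr2:129309923-129310222 (- strand, *Il1a*), chr2:129371090-129371389 (- strand, *Il1b*), chr9:50554450-50554749 (+ strand, *Il18*) and chr7:102018183-102018482 (- strand, *Il18bp*).
Il1a: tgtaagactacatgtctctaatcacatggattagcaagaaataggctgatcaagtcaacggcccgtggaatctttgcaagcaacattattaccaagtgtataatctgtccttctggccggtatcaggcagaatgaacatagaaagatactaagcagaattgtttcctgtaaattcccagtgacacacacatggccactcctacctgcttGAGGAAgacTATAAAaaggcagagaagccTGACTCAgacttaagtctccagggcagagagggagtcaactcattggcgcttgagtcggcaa
Il1b: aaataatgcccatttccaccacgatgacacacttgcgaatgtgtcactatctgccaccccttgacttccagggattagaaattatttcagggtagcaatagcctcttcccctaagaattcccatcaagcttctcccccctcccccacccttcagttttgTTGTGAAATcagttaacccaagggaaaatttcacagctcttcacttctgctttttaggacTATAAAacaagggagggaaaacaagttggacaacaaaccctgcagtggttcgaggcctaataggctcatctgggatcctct
Il18: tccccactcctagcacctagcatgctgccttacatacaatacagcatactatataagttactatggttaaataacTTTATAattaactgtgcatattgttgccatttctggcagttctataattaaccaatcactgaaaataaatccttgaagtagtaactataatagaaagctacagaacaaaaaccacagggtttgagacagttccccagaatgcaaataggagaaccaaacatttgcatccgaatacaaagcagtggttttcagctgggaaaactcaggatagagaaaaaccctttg
Il18bp: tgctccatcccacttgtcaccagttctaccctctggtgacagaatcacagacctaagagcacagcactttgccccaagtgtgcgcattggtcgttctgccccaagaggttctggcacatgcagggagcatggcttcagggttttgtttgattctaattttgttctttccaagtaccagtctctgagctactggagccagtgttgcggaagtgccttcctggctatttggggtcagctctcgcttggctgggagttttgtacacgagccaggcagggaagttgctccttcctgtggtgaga
Both agonist windows held a TATA box close to the start, at -32 in *Il1a* and -31 in *Il1b*. These letters stood at any position, on either strand, in 13.6% of 32851 promoters of the same length. The other shares given here were counted in the same way. *Il1a* also held PU.1 letters at -41 (28.3% of promoters) and AP-1 letters at -12 (7.81%), and *Il1b* C/EBP letters at -91 (11.5%). The *Il18* window held only TATA letters on the opposite strand at -175, and the *Il18bp* window none of the 7 motifs. None of the 4 held κB (8.46% of promoters), ISRE (3.44%) or GAS letters (8.30%). A match is a stretch of letters and not a binding site, and its absence concerns this window alone.

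*Il1b* (ENSMUSG00000027398, chr2:129364570-129371139, - strand, GRCm38) encodes IL-1β, the main secreted agonist of activated macrophages. It stood at 7.92, 7.91 and 10.4 FPKM in WT-labelled and at 0.519, 0.644 and 0.534 FPKM in KO-labelled libraries. The KO-labelled libraries were tightly grouped and all far below the WT-labelled ones. The mean fell from 8.75 ± 1.44 to 0.566 ± 0.068 FPKM (SD, n = 3 each), 15.5-fold lower, and the log2 fold change was -3.11 (SE 0.14, 95% confidence interval -3.44 to -2.78, limma adjusted p = 1.3e-05). At the depth given above, each KO-labelled value rests on at most 17 to 25 fragments, so the size of the fall is less certain than its direction.

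*Il1a* (ENSMUSG00000027399, chr2:129299610-129309972, - strand) encodes IL-1α, which is active as a precursor and is released by damaged cells. It was at 3.91, 3.89 and 3.31 FPKM in WT-labelled and 0.634, 0.288 and 0.713 FPKM in KO-labelled libraries. The groups did not overlap, and KO replicate 2 was the lowest. The mean was 6.79-fold lower, at 3.70 ± 0.344 against 0.545 ± 0.226 FPKM (log2 fold change -2.03, SE 0.19, limma adjusted p = 0.000327), again from at most 11 to 26 fragments per KO-labelled library. *Il1a* and *Il1b* lie within 71.5 kb of chromosome 2, and neither of the 2 genes annotated between them was high enough to be tested.

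*Il1f9* (*Il36g*, ENSMUSG00000044103, chr2:24186476-24193568, + strand) encodes IL-36γ, an agonist of the IL-36 receptor that is better known from epithelia. It was low throughout, at 1.19, 1.19 and 1.39 FPKM in WT-labelled and 0.638, 0.678 and 0.713 FPKM in KO-labelled libraries. The groups did not overlap, and the mean was 1.86-fold lower (log2 fold change -0.58, SE 0.12, limma adjusted p = 0.0105).

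*Il18* (ENSMUSG00000039217, chr9:50554827-50581840, + strand) encodes IL-18, which drives interferon-γ production by T and NK cells and, unlike IL-1β, is held as a preformed precursor in resting macrophages. It was at 2.09, 2.27 and 3.41 FPKM in WT-labelled and 6.07, 6.40 and 6.62 FPKM in KO-labelled libraries. All KO-labelled libraries lay above the highest WT-labelled one, replicate 3. The mean was 2.46-fold higher, at 2.59 ± 0.715 against 6.36 ± 0.278 FPKM (log2 fold change 1.17, SE 0.17, limma adjusted p = 0.00197). *Bco2*, which overlaps *Il18* on the opposite strand, was between 0.287 and 1.12 FPKM, and whether the counting used strand is not stated.

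Of the antagonists, *Il1rn* (ENSMUSG00000026981, chr2:24336853-24351494, + strand) had the highest FPKM of the 10 transcripts in WT-labelled libraries. It measured 19.8, 21.3 and 15.7 FPKM there and 3.96, 4.48 and 3.54 FPKM in KO-labelled libraries. The groups were widely apart, and the mean was 4.75-fold lower, at 18.9 ± 2.88 against 3.99 ± 0.468 FPKM (log2 fold change -2.11, SE 0.14, limma adjusted p = 7.8e-05). The gene makes secreted and intracellular forms of the antagonist, which a value per gene does not separate. The antagonist thus fell together with both agonists it opposes.

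*Il18bp* (ENSMUSG00000070427, chr7:102014885-102018690, - strand) was at 14.5, 13.9 and 12.6 FPKM in WT-labelled and 2.94, 2.15 and 1.73 FPKM in KO-labelled libraries. The groups did not overlap. The mean was 6.0-fold lower, at 13.6 ± 0.984 against 2.27 ± 0.615 FPKM (log2 fold change -2.37, SE 0.17, limma adjusted p = 9.9e-05). Its end overlaps *Numa1* on the opposite strand, which stood at 11.5 to 16.2 FPKM in WT-labelled and 20.8 to 26.9 FPKM in KO-labelled libraries, so that the 2 genes differed in opposite directions.

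*Il1r2* (ENSMUSG00000026073, chr1:40074079-40125231, + strand), the decoy receptor, was the lowest of the 10 in both groups, at 0.557, 0.578 and 0.768 FPKM in WT-labelled and 0.0885, 0.375 and 0.281 FPKM in KO-labelled libraries. The values did not overlap, but they rest on at most 3 to 26 fragments per library, and its overall mean of 0.441 FPKM was under the filter. When all genes were tested without a filter, its log2 fold change was -0.62 (SE 0.18, limma adjusted p = 0.0797), which did not pass the threshold.

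Among the receptor chains, the shared signalling pair showed no called difference. *Il1r1* (ENSMUSG00000026072, chr1:40225080-40317257), the signalling receptor for IL-1α and IL-1β, was at 1.48, 1.65 and 1.27 FPKM in WT-labelled and 1.58, 1.91 and 1.57 FPKM in KO-labelled libraries. *Il1rap* (ENSMUSG00000022514, chr16:26581704-26730117), the accessory chain that IL-1, IL-33 and IL-36 receptors share, was at 1.69, 1.68 and 1.21 FPKM against 1.22, 1.14 and 1.21 FPKM. Both pairs of groups overlapped. The log2 fold change was 0.16 for *Il1r1* (95% confidence interval -0.16 to 0.47, limma adjusted p = 0.391), and its sign turned with other scalings between libraries (-0.0080 with median-of-ratios and -0.093 with quantile normalization). For *Il1rap* it was -0.25 (95% confidence interval -0.59 to 0.08, limma adjusted p = 0.196), and *Il1rap* was called lower with quantile normalization (-0.51, adjusted p = 0.0218) and without WT replicate 3 (-0.37, adjusted p = 0.040).

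*Il1rl1* (ENSMUSG00000026069, chr1:40429570-40465415) encodes ST2, the receptor for IL-33, in membrane and soluble forms that were not separated here. It was at 6.49, 6.94 and 5.80 FPKM in WT-labelled and 3.42, 3.06 and 3.35 FPKM in KO-labelled libraries. The groups did not overlap. The mean was 1.96-fold lower, at 6.41 ± 0.571 against 3.27 ± 0.192 FPKM (log2 fold change -0.87, SE 0.10, limma adjusted p = 0.000912). ST2 is also a known receptor of mast cells and basophils. Of 10 markers of these cells, the 2 tested were both lower. *Mcpt8*, a basophil protease, was at 14.6, 18.8 and 26.4 against 6.36, 6.86 and 7.52 FPKM. *Hdc*, whose product makes histamine, was at 1.81, 1.51 and 1.73 against 0.237, 0.279 and 0.262 FPKM. *Kit* stayed at or below 0.17 FPKM and *Cpa3* at or below 0.075 FPKM, and *Fcer1a*, *Ms4a2*, *Cma1* and *Tpsb2* were listed at 0 in every library. The summed level of the 10 markers was 16.7 to 28.6 FPKM in WT-labelled and 6.97 to 8.04 FPKM in KO-labelled libraries, and their part in the *Il1rl1* difference was not tested.

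**Figure D2:**
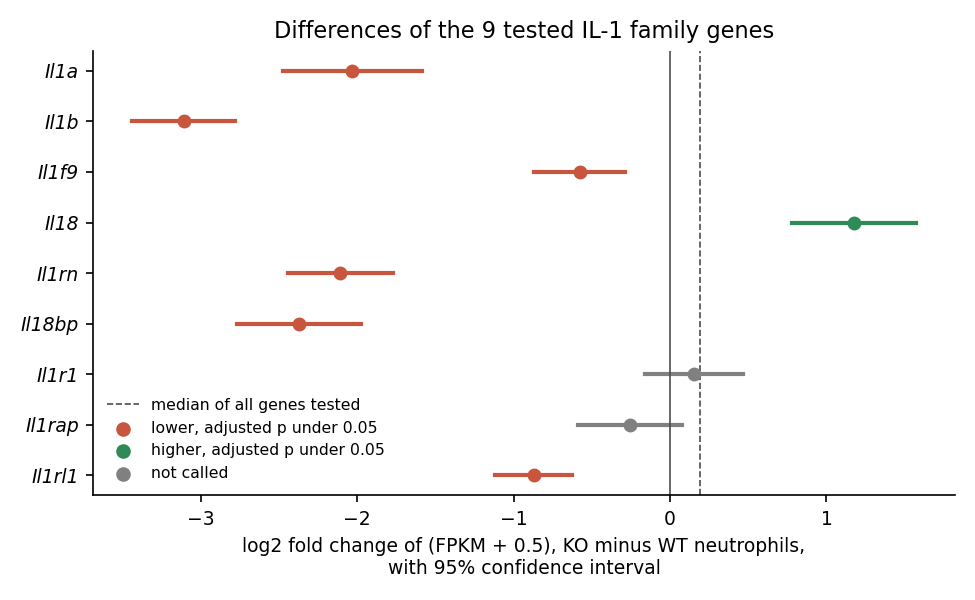
Log2 fold change of FPKM + 0.5, KO-labelled minus WT-labelled (n = 3 each), of the 9 genes tested, with bars for limma's 95% confidence interval and a dashed line for the median of all genes tested, 0.19. Of the intervals, 6 lie wholly below 0, from -3.11 for *Il1b* to -0.58 for *Il1f9*, that of *Il18* lies above 0, and those of *Il1r1* and *Il1rap* include 0.

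Because FPKM is scaled by length, levels of different genes were set side by side within a group. The gene lengths behind the values are not given, so the order of genes depends on lengths that were not checked. In WT-labelled libraries the order of mean levels was *Il1rn*, *Il18bp*, *Il1b*, *Il1rl1*, *Il1a*, *Il18*, *Il1rap*, *Il1r1*, *Il1f9* and *Il1r2*. Neighbours in this order overlapped between *Il1a* and *Il18* and among *Il1rap*, *Il1r1* and *Il1f9*. In KO-labelled libraries the order was *Il18*, *Il1rn*, *Il1rl1*, *Il18bp*, *Il1r1*, *Il1rap*, *Il1f9*, *Il1b*, *Il1a* and *Il1r2*, with overlaps between *Il18bp* and *Il1r1* and along the chain from *Il1f9* to *Il1r2*. *Il18* thus went from rank 6 to rank 1 and *Il1b* from rank 3 to rank 8.

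The balance of antagonist against agonist moved in opposite directions for IL-1 and IL-18. *Il1rn* relative to *Il1b* was 2.50, 2.69 and 1.51 in WT-labelled and 7.63, 6.95 and 6.63 in KO-labelled libraries. The 2 transcripts both fell, but *Il1b* fell further, so the mean ratio was 3.16-fold higher (2.23 ± 0.635 against 7.07 ± 0.509, n = 3 each). *Il1rn* relative to the sum of *Il1a* and *Il1b* was 1.67, 1.80 and 1.15 against 3.43, 4.80 and 2.84, a mean 2.39-fold higher. In neither ratio did the groups overlap, and in each library the antagonist transcript exceeded the agonists in FPKM. Whether a ratio of 2 genes lies above or below 1 depends on the gene lengths used, which are not given.

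*Il18bp* relative to *Il18* was 6.94, 6.10 and 3.69 in WT-labelled and 0.485, 0.336 and 0.262 in KO-labelled libraries. In FPKM, binding-protein transcript exceeded cytokine transcript in every WT-labelled library and was below it in every KO-labelled one. The mean ratio was 15.5-fold lower (5.58 ± 1.69 against 0.361 ± 0.114). *Il1r2* relative to *Il1r1*, decoy against signalling receptor, was 0.378, 0.350 and 0.605 against 0.0561, 0.196 and 0.179, a mean 3.09-fold lower that rests on the few *Il1r2* fragments. These are ratios of transcripts within a library, so scaling between libraries does not alter them, and they were described and not tested. On the log2 scale with 0.5 added to both FPKM values the differences were smaller for pairs with a low gene, at 1.00 for *Il1rn* to *Il1b* and -0.77 for *Il1r2* to *Il1r1*, and -3.55 for *Il18bp* to *Il18*.

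**Figure D3:**
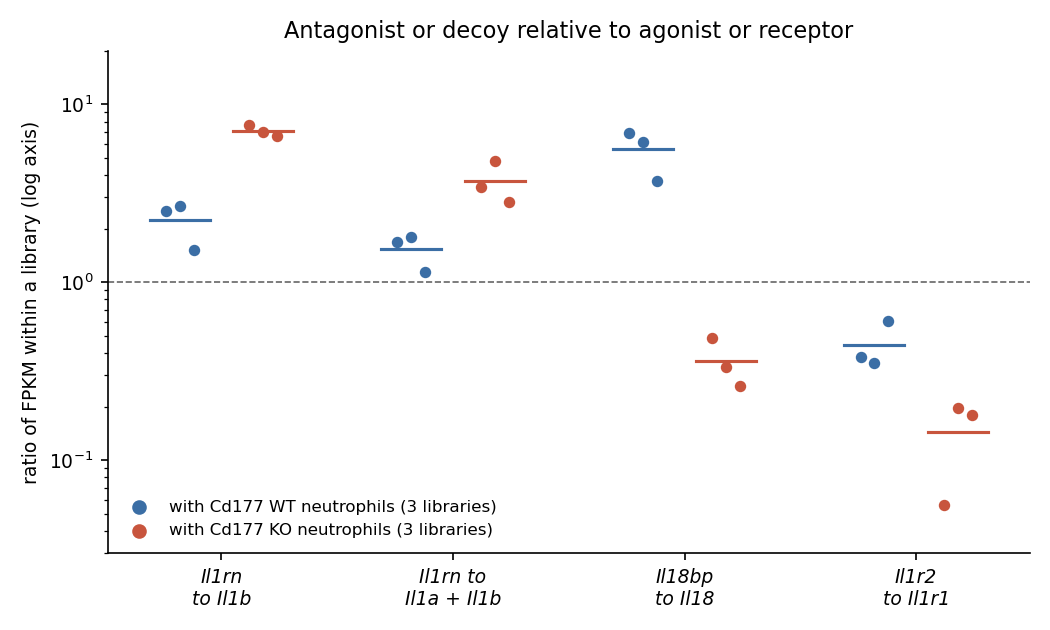
Ratio of FPKM within each library (log axis) of antagonist or decoy to agonist or receptor, WT-labelled in blue and KO-labelled in red, with lines for the means of 3 libraries and a dashed line at a ratio of 1. The ratios with *Il1rn* are higher in KO-labelled libraries, with means of 7.07 against 2.23 for *Il1b*, and *Il18bp* to *Il18* crosses 1, from a mean of 5.58 to 0.361.

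Neutrophils are known to transcribe *Il1b*, *Il1rn* and *Il1r2*. *Il1b* and *Il1rn* were lower, and *Il1r2* had its lowest values, in the KO-labelled libraries, where the summed neutrophil markers were higher, and the part of neutrophil RNA in the IL-1 family values was not tested. Macrophage markers moved both ways, the falls being the larger. Of 10 tested, *Cd14* (log2 fold change -3.33, beside -3.11 for *Il1b*) and *Fcgr1* (-1.83) were lower. *Adgre1* (0.30), *Mertk* (0.72) and *C1qa* (0.76) were higher. Of the higher ones, *C1qa* was called under each scaling and without each library in turn. *Adgre1* was not called with median-of-ratios, upper-quartile or TPM scaling or in 5 of the 6 fits that left out a library, and *Mertk* was not called with median-of-ratios scaling or without KO replicate 1 or KO replicate 2. Lymphocyte and NK cell markers, the usual responders to IL-18, summed to 3.16 to 5.96 FPKM in WT-labelled and 6.95 to 8.85 FPKM in KO-labelled libraries, and of the 2 tested *Cd4* was higher. Of the endothelial, fibroblast and spinal cord markers, 5 were tested and 1 was called, *Tubb3*, which was higher. *Col1a1*, a fibroblast collagen, lay between 228 and 361 FPKM, a range that includes that of the macrophage marker *Csf1r*. *Pdgfra*, also a fibroblast marker, lay between 2.52 and 3.55 FPKM. The values are therefore not of macrophages alone, and the part of fibroblast RNA in the IL-1 family values was not tested. The *Tubb3* call was lost with median-of-ratios, upper-quartile or quantile scaling and in 4 of the 6 fits that left out a library.

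The remaining ligands and receptors of the family were mostly at or near 0. Of 11, only *Il1rl2*, the IL-36 receptor, and *Il18rap*, the IL-18 receptor accessory chain, were tested, and limma called neither, with 0 of them at an unadjusted p under 0.05. *Il1rl2* was at 0.94, 1.11 and 0.62 against 1.01, 1.11 and 0.73 FPKM, and *Il18rap* at 0.916, 1.08 and 0.614 against 0.851, 0.913 and 0.914 FPKM. Untested were *Il33*, *Il1f6*, *Il1f8*, *Il1f5*, *Il1f10*, *Il18r1*, *Sigirr*, *Il1rapl1* and *Il1rapl2*, and 6 of the 11 genes were listed at 0 in every library. *Sigirr*, an inhibitory receptor of the family, was at 0.136, 0.107 and 0.0363 against 0.294, 0.230 and 0.345 FPKM, and 1 of the 11 genes was called higher when no filter was applied. *Il1r2*, *Il1r1*, *Il1rl2*, *Il1rl1* and *Il18rap* lie within 477.6 kb of chromosome 1, and of the 3 genes tested between the outer 2, 1 (*Il1rl1*) was called. On chromosome 2, 6 genes are annotated in the 165 kb from *Il1f9* to *Il1rn*, and 0 of them were high enough to be tested.

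Genes that mature or shed IL-1 family cytokines did not move one way. Of 16 tested, 4 were lower and 5 higher, beside 10.5% and 27.1% of all genes tested. The median log2 fold change of the 16 was -0.09. The lower ones with the largest differences were *Mefv* (pyrin, -1.15), *Casp4* (the caspase that senses cytosolic lipopolysaccharide, -0.87) and *Ctss* (a lysosomal protease, -0.50). The higher ones were led by *Nlrp1b* (1.73) and *Nlrc4* (0.68), both inflammasome sensors, and *Capn2*, a calpain protease (0.45). *Casp1*, which cleaves both precursors, was not called, at 13.8, 14.5 and 17.2 against 12.2, 12.9 and 17.3 FPKM. Leaving out 1 library took the count of lower genes to between 2 and 5, and it was 2 without WT replicate 1, WT replicate 2, KO replicate 1 or KO replicate 3, as it was with no filter on low values. The count of higher genes was 3 without KO replicate 1, 2 or 3 and 2 with median-of-ratios scaling. *Ctss* was called in only 1 of the 6 fits that left out a library, and *Capn2* was not called with median-of-ratios scaling or without KO replicate 2.

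Of 20 genes of receptor signalling, all tested, 2 were lower, 3 higher and 15 not called. Of all genes tested, 10.5% were lower and 27.1% higher. The median log2 fold change of the 20 was 0.07. *Myd88*, the adaptor of the receptors, was at -0.40 and *Peli1*, a ubiquitin ligase for IRAK proteins, at -0.38, while *Peli2* was at 0.99, *Tab2*, which links TRAF6 to TAK1, at 0.49 and the kinase *Irak4* at 0.43. The lower calls depended on single libraries, with 0 genes called lower without WT replicate 1 and 1 without WT replicate 2, KO replicate 1 or KO replicate 2, and *Tab2* was called in only 2 of the 6 fits that left out a library. With median-of-ratios scaling 4 genes were lower and 1 higher, *Irak4* and *Tab2* no longer being called, and with TPM scaling 1 was lower. *Tab2* was also not called with upper-quartile scaling.

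Genes known to be induced by IL-1 through NF-κB were lower almost throughout. Of 17, 15 were tested, 14 were lower and 0 were higher (0 also at an unadjusted limma p under 0.05). Of all genes tested, 10.5% were lower and 27.1% higher. The median log2 fold change of the 15 was -1.78. Like the other lists, this one was chosen with earlier results of these data known. *Cxcl2*, a neutrophil chemoattractant, was at 45.9, 45.7 and 54.3 FPKM in WT-labelled and 1.45, 1.84 and 1.89 FPKM in KO-labelled libraries (log2 fold change -4.47). *Saa3*, an acute-phase protein, was at 9.04, 8.28 and 13.8 against 0.213, 0.336 and 0.224 FPKM (-3.81). *Ptgs2*, the inducible cyclooxygenase, was at 95.1, 100.4 and 95.9 against 7.95, 7.84 and 8.72 FPKM (-3.49). In each of these the groups were far apart, and only *Nfkbiz* (-0.15) of the tested genes was not called. The same genes are known to answer to many other stimuli of NF-κB.

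**Figure D4:**
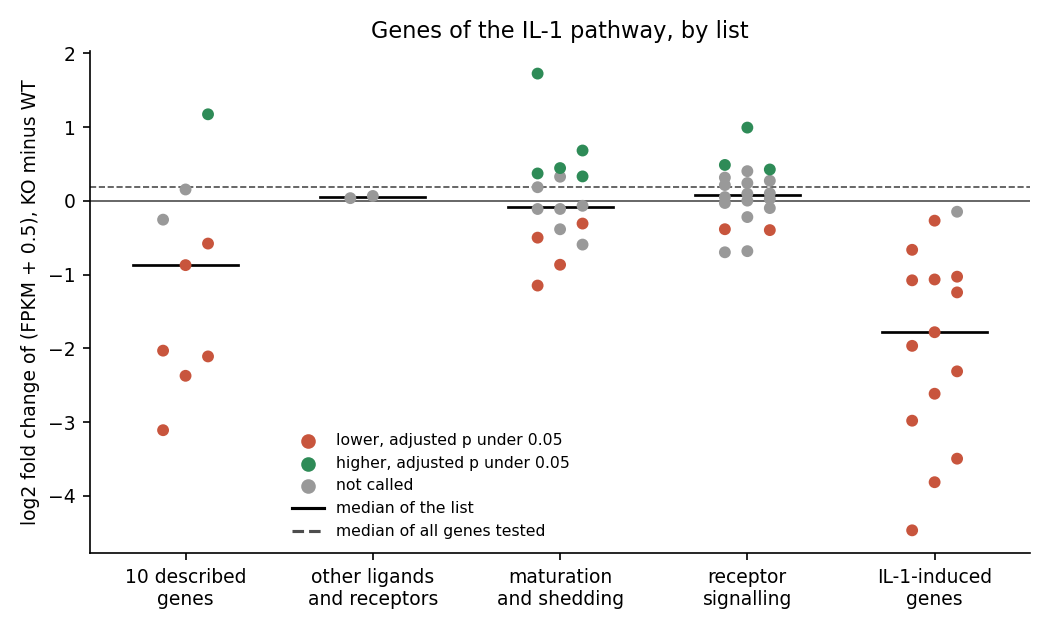
Log2 fold change of FPKM + 0.5, KO-labelled minus WT-labelled, for each tested gene of the 10 described and of 4 lists of related genes, with 1 point per gene coloured by its call, black lines for list medians and a dashed line for the median of all genes tested, 0.19. Points of the IL-1-induced genes lie below 0, with a median of -1.78, while those of maturation and of signalling lie on both sides, with medians of -0.09 and 0.07.

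The genes whose profile over the 6 libraries was most like that of *Il1b* were *Mmp10*, *Pdpn* and *Hmox1*. Likeness was the root mean square difference of log2(FPKM + 0.5) after centring each gene, which was 0.0735, 0.0955 and 0.101. *Mmp10*, a matrix metalloproteinase, was at 5.90, 6.08 and 6.87 FPKM in WT-labelled and 0.230, 0.305 and 0.283 FPKM in KO-labelled libraries. *Pdpn*, a membrane mucin, was at 85.7, 90.0 and 99.5 against 8.99, 10.9 and 8.73 FPKM. *Hmox1*, the inducible haem oxygenase, was at 3159, 3125 and 3695 against 396.2, 382.3 and 420.1 FPKM. Their log2 fold changes were -3.13, -3.20 and -3.05, near the -3.11 of *Il1b*, since a profile over 2 groups is set mostly by the difference between them.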

How the data were processed

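RNA-seq of 6 BMDM libraries was used, 3 per label, with groups and replicate numbers from the sample titles. The deposited table holds FPKM by gene for every library, with no counts. The submitters' processing notes name fastp 0.17.1, HISAT2 2.1.0, DESeq2 1.18.1 and R 3.4.3, and the genome build, annotation and quantifier are not given in the sources used here. The labels and the study's methods name different extraction reagents, library kits and sequencers. FPKM divides by the library total, so that changes of very abundant genes alter the values of the rest, and column sums ran from 302532 to 340717. Symbols and positions came from GENCODE M21 (GRCm38), which held 55154 of the 55335 identifiers. Promoters came from RefSeq (GRCm38.p6), where all 10 genes had an entry.

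Depth was read from the steps of FPKM times transcript length in 25323 genes with 1 transcript. Because only 42.9% to 47.5% of low values lay within 0.1 of a whole step, reads were not recovered, no count test was run, and fragment numbers are upper estimates that cover counting error only. Values were tested as log2(FPKM + 0.5), which makes changes of low genes appear smaller, with limma 3.58.1 in R 4.3.3 (lmFit, eBayes with trend, two-sided, no covariates) over the 13367 genes averaging 0.5 FPKM or more, with Benjamini-Hochberg adjustment. The fit was tested on simulated data. Ratios were taken per library. The 10 genes and all lists were chosen with earlier results of these data known. All 10 are named, and of the pathway lists up to 3 lower and 3 higher genes with the largest fold per list, together with untested family members. The 3 genes most like *Il1b* were ranked among all tested genes. *Casp1*, *Nfkbiz*, *Cd14*, *Fcgr1*, *Mertk*, *C1qa*, *Mmp8*, *Mcpt8*, *Hdc*, *Cd4*, *Tubb3* and the 4 markers listed at 0 were named after their values were seen. So were *Ltf*, *Ngp*, *Lcn2*, *Camp*, *Col1a1* and *Pdgfra*. An interval from *Il1a* to *Il1rn* was not used, because 104973 kb lie between them. Alternatives were pseudocounts of 0.1 and 1, other filters, 4 scalings, a robust variance, a replicate block, other thresholds and each library left out.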

Additional observations from a re-analysis of the deposited data

How the results depend on the processing

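The 6 lower and 1 higher genes of the family kept their call and direction in each of the 16 refits in which they were tested (15 for *Il1f9*, which fell under a filter of 1 FPKM), with log2 fold changes between -3.72 and -2.63 for *Il1b*, -2.63 and -1.61 for *Il1a*, -2.31 and -1.99 for *Il1rn*, -2.56 and -2.18 for *Il18bp*, and 0.97 and 1.36 for *Il18*. The number lower was 5 at a mean of at least 1 FPKM or an adjusted p under 0.01, 4 at a fold above 2 with an unadjusted p under 0.05, and 7 with quantile normalization or without WT replicate 3. *Il1r1* turned from 0.16 to -0.0080 with median-of-ratios scaling and to -0.093 with quantile normalization. Of the 4 pathway lists, 20 genes were lower and 8 higher, but 3 were higher with median-of-ratios scaling, and leaving out 1 library gave 15 to 21 lower and 5 to 8 higher (5 higher without KO replicate 1, 2 or 3). The log2 difference of the *Il1rn* to *Il1b* ratio, 1.00, was 1.51 with a pseudocount of 0.1 and 0.64 with 1, and that of *Il1r2* to *Il1r1*, -0.77, was -1.36 and -0.52. Over all genes, the 1408 lower and 3619 higher became 2221 and 2144 with median-of-ratios scaling, 1652 and 2874 with upper-quartile scaling, 1928 and 2426 with quantile normalization, 922 and 2007 at an adjusted p under 0.01, and 592 and 893 at the fold threshold, and the median log2 fold change of 0.19 moved to -0.00, 0.11 and 0.03 under the 3 scalings in that order. The cause of these moves was not tested. Correlations of deviations did not settle whether replicate numbers pair the libraries. Same-number pairs gave 0.12, 0.04 and 0.26, the last, for replicate 3, being the highest of all pairs. WT replicate 1 correlated best with KO replicate 2, at 0.16. With the number as a replicate block, the family kept 6 lower and 1 higher, the pathway lists had 21 lower and 8 higher, and all genes 1681 lower and 4253 higher. Depth limits *Il1r2*, *Il1f9* and the KO-labelled values of *Il1a* and *Il1b*, each from few fragments.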

Other observations

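Serine proteases of neutrophil granules can cleave precursors of the IL-1 family outside the cell. *Elane* was at 0.531, 0.224 and 0.197 FPKM in WT-labelled and 0, 0.0499 and 0.365 FPKM in KO-labelled libraries, and *Ctsg* at 0.204, 0.374 and 0.269 against 0, 0.140 and 0.262 FPKM, with overlapping groups in both. *Prtn3* was at 0, 0.0635 and 0.0641 against 0.329, 0.514 and 0.438 FPKM, with all KO-labelled libraries higher. The mean of each was under 0.5 FPKM, and these genes were not tested.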
